A study of Mus musculus with 7 samples.

Results

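Bcl3 and Commd1 are 2 of the 48440 genes in the islet count table, and both were among the 4218 genes with enough counts to test. They were selected because the study names both from this same comparison, so their difference between the groups, and the high Commd1 value of vehicle replicate 3 on which they were also selected, are described here without a test. The rows were found through their Ensembl IDs, and the row annotated on the other strand was taken with each: Gm16175 opposite Bcl3, and Zrsr1 opposite Commd1.

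NF-κB transcription factors are dimers that IκB proteins hold in the cytoplasm until the IκB kinase (IKK) complex marks the inhibitor for degradation. Bcl3 is an unusual IκB family member that works in the nucleus, where its ankyrin repeats bind dimers of the p50 and p52 subunits made from Nfkb1 and Nfkb2, and it can raise or lower transcription from their sites. Commd1 is a COMM domain protein that promotes ubiquitination and degradation of the RelA subunit through a cullin-2 ligase, and it also works with Ccdc22 and Ccdc93 in a complex that recycles membrane proteins such as the copper transporter Atp7b. Zrsr1 is an imprinted gene related to the splicing factor U2AF1, which lies within Commd1. Gm16175 is annotated only as an antisense transcript. In islets, NF-κB is known for its part in the response of β cells to inflammatory cytokines.

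The libraries came from pancreatic islets of female, prediabetic NOD.hALOX12 mice, a nonobese diabetic strain in which human ALOX12 replaces the mouse Alox15 gene in every cell of the body under the mouse gene's control, and both groups carry this replacement. Mice were treated by mouth for 4 weeks with vehicle (4 libraries) or with VLX-1005, an inhibitor of human 12-lipoxygenase, at 30 mg/kg (3 libraries). After collagenase digestion, islets were hand-picked and rested overnight before RNA was taken for strand-specific sequencing of polyadenylated RNA. The study calls the mice prediabetic and gives their age in weeks, while the labels gave no age. The labels did not say that the libraries came from separate animals, so each p-value rests on the spread among these libraries, which may be technical.

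The libraries held 1024586 to 1430785 counts on genes. Rows of annotated genes whose exons overlap a gene on the other strand made up 17.6% of the 48058 rows with a position and held 96.5% of their counts. Such rows had a median of 26 counts in all libraries together, and the other 39598 rows a median of 0. The strand setting of the counting is not given in the sources used here, and counts per gene keep no strand. Counting with the reverse strand setting would fill a row with reads of its partner. Whether the reads behind a row came from the named gene or from its partner was not tested. Each value below is therefore the value of a row, and may not be the level of the named gene. Vehicle replicate 3 had a count for 9862 genes, the fewest, against 10791 to 12310 in the other libraries. All 8 β cell markers had a count, with a summed level of 252 to 344 CPM (counts scaled to the total of the library) in vehicle and 169 to 299 CPM in VLX-1005. Ins2 (insulin) held 1205 counts in all libraries together and Gcg (glucagon) 1433, while the general leukocyte gene Ptprc had 1 count, and the macrophage gene Adgre1 was at 0. The B cell markers summed to 0 CPM in every vehicle library and to at most 4.66 CPM in VLX-1005, from 7 counts of Cd79a. Of the 4 macrophage markers 3 had a count, with a sum of 244 to 315 CPM in vehicle and 270 to 304 CPM in VLX-1005. Nearly all of it was Csf1r, with 2370 counts, beside 6 of Cd68 and 1 of Itgam. The study's staining showed T cells, B cells and macrophages at the islets of such mice. The marker values are values of rows too, and are not read as the cell content of the islets. Beside the comparison, 2 other measures did not overlap between the groups. The 4 endothelial and stromal markers summed to 1.82 to 5.83 CPM in vehicle and 6.69 to 9.31 CPM in VLX-1005. These sums rest on few counts, from 3 (Kdr) to 17 (Col3a1) per gene in all libraries together. Ribosomal RNA took 1.69% to 2.11% of the counts in vehicle and 2.15% to 3.14% in VLX-1005. The part of these 2 measures in the results below was not tested beyond 1 fit with the ribosomal share as a covariate. In bulk islets, fewer cells of a type and less RNA per cell cannot be told apart.

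Bcl3 (ENSMUSG00000053175.17) lies on the minus strand at chr7:19808462-19822770 of mm10 and has 6 annotated transcripts. Gm16175 (ENSMUSG00000087206.1) lies inside it on the plus strand at chr7:19809609-19811872, with 1 transcript of 248 bases in 2 exons. Their exons share 161 bases, which are 6.51% of the exonic bases of Bcl3 and 64.9% of those of Gm16175. The first shared stretch, chr7:19809609-19809663, lies in coding exon 7 of the 9 exons of Bcl3-201, and the other, chr7:19811767-19811872, in the first exon of Bcl3-206, a transcript with a retained intron. The Gm16175 transcript is shown because reads from its capitals fit the exons of both genes. The sequence is from GENCODE release M21, and capitals mark the bases that are also exonic in Bcl3, on the opposite strand.
Gm16175-201: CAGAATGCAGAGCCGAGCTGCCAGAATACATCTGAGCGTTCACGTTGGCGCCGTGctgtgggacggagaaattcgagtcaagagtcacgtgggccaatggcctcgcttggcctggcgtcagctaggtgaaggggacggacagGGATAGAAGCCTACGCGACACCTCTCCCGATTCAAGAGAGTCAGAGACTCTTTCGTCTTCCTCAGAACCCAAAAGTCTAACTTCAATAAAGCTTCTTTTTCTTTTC

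Commd1 (ENSMUSG00000051355.18) lies on the minus strand at chr11:22896136-22982382, also with 6 transcripts. Zrsr1 (ENSMUSG00000044068.6) lies on the plus strand at chr11:22972005-22976496, in introns of the longer Commd1 transcripts. A pair of short Commd1 exons falls within it, exon 2 of the 4 exons of Commd1-201 at chr11:22973900-22974102 and the first exon of the noncoding Commd1-206 at chr11:22972651-22972859. They share 412 bases with Zrsr1, which are 6.94% of the exonic bases of Commd1 and 9.17% of those of Zrsr1. The stretch of Zrsr1 around the coding Commd1 exon, chr11:22973880-22974122 on the plus strand, is shown for the same reason, with the 203 bases of the Commd1 exon in capitals.
Zrsr1-201 stretch: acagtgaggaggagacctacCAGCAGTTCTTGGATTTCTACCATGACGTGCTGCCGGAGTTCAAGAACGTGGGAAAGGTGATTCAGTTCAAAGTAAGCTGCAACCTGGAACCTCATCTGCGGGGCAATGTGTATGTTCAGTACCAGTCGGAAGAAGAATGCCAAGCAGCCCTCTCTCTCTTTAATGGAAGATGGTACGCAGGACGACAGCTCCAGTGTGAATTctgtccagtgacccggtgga

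**Figure D1:**
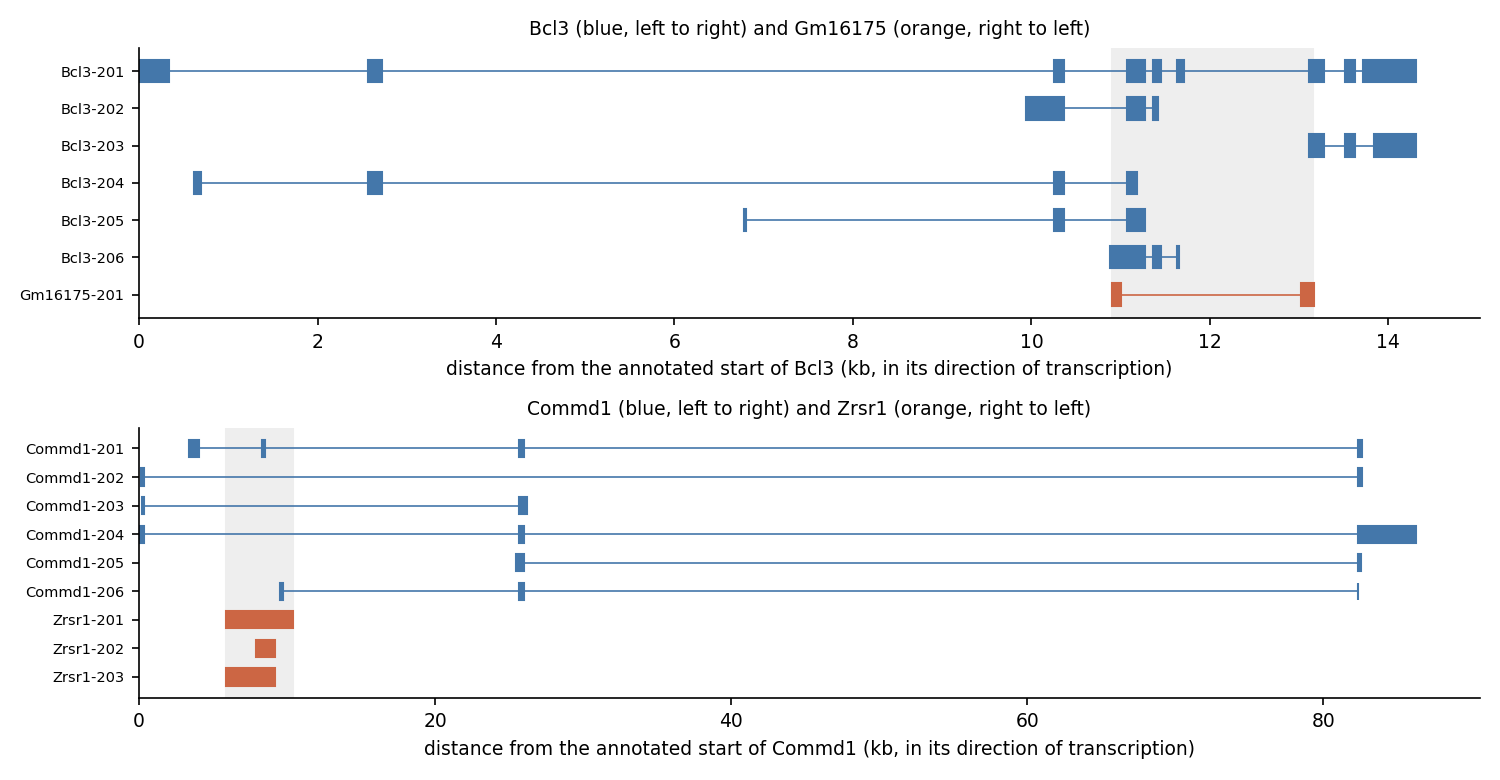
Annotated transcripts of Bcl3 with Gm16175 (top) and of Commd1 with Zrsr1 (bottom), as boxes for exons and lines for introns, by distance in kb from the start of Bcl3 or Commd1; grey bands span the partner gene. Both partners run against the member gene, and they share 161 and 412 exonic bases with it.

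The Bcl3 promoter is shown because Bcl3 is itself known as a gene that NF-κB acts on. In the RefSeq window on GRCm38.p6 from 250 bases before to 50 after the start, the NF-κB consensus was found once in Bcl3, beginning 2 bases after the start, and it is in capitals in the stretch chr7:19822744-19823005 on the minus strand. The consensus was searched on both strands and was present in 2779 of 32851 RefSeq windows of this kind (8.46%). No match lay in the windows of Commd1 or Zrsr1. A match describes the letters only.
Bcl3 promoter: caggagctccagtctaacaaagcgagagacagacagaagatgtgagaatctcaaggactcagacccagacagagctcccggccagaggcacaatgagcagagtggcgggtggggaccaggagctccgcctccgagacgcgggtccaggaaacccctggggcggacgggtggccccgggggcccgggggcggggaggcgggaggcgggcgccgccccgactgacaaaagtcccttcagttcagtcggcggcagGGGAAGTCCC

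Bcl3 was a row of low counts. It held 32, 46, 64 and 57 counts in vehicle replicates 1 to 4 and 41, 13 and 23 in VLX-1005 replicates 1 to 3. Scaled by trimmed mean of M values (TMM) factors, this is 26.7, 35.4, 58.4 and 44.6 CPM in vehicle and 27.9, 12.4 and 17.9 CPM in VLX-1005. The highest library was vehicle 3 and the lowest VLX-1005 replicate 2, and the groups overlapped, since VLX-1005 replicate 1 lay just above vehicle replicate 1. The mean level was 41.3 ± 13.6 CPM (SD, n = 4) in vehicle and 19.4 ± 7.86 CPM (SD, n = 3) in VLX-1005, a log2 fold change of -1.06 ± 0.35 (SE). Of all tested genes, 0.711% had a lower value, and the median over all of them was -0.01.

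Commd1 held more counts, and its difference was smaller. The row had 252, 248, 339 and 265 counts in the vehicle libraries and 269, 180 and 179 in the VLX-1005 libraries. Its level was 210.0, 190.8, 309.0 and 207.3 CPM in vehicle and 183.2, 172.1 and 138.9 CPM in VLX-1005. Every VLX-1005 library lay below every vehicle library, with 183.2 CPM next to 190.8 CPM at the boundary. The means were 229.3 ± 53.9 CPM (SD, n = 4) and 164.7 ± 23.0 CPM (SD, n = 3), and the log2 fold change was -0.47 ± 0.19 (SE). A lower value was found in 8.16% of tested genes.

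By edgeR's quasi-likelihood test with Benjamini-Hochberg adjustment at 0.05, 100 of 4218 genes were called (2.37%), 99 higher and 1 lower (0.0237%) with VLX-1005. Leaving out 1 library moved this number to between 14 (without vehicle 1) and 203 (without VLX-1005 replicate 3). Neither of the 2 members was among the 100. In the CPM values, 344 genes (8.16%) had all VLX-1005 libraries below all vehicle libraries, as 1 of the 2 members did. Since both were selected on this comparison, nothing is read from these counts. With the ribosomal RNA share as a covariate, the log2 fold change of Commd1 was -0.75 and that of Bcl3 -0.96, and edgeR called 0 genes, with 260 at an unadjusted p under 0.05 against 759 without the covariate.

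**Figure D2:**
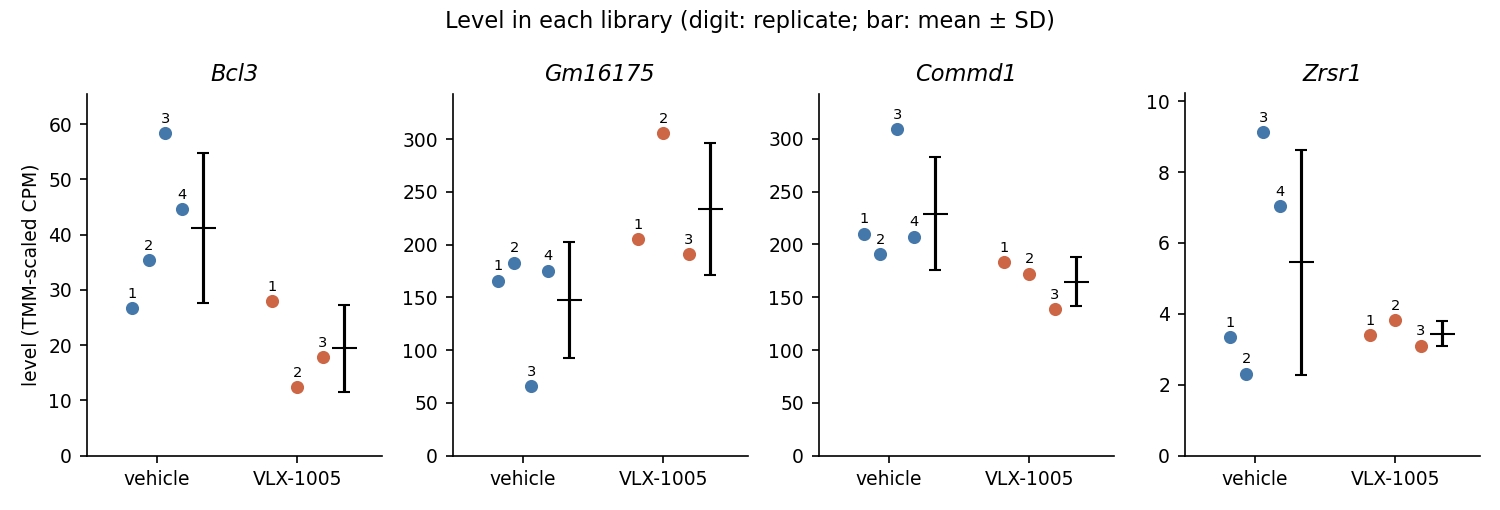
Level in TMM-scaled CPM of Bcl3, Gm16175, Commd1 and Zrsr1 in each library (points, with the replicate number), with mean ± SD to the right of each group; each panel has its own axis from 0. Vehicle 3 was the highest vehicle library for Bcl3, Commd1 and Zrsr1 and the lowest of all libraries for Gm16175.

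The high value of vehicle 3 set the spread of Commd1. Its 309 CPM was 1.49 times the median of the other vehicle libraries, which lay between 191 and 210 CPM. The gap to the nearest of them took up 0.838 of the range of the group, and 0.758 when levels were scaled to the library total only. As the value was part of the selection, it was not tested. Without vehicle 3 the vehicle mean of Commd1 was 202.7 ± 10.4 CPM (SD, n = 3) and the log2 fold change was -0.30 ± 0.16 (SE). For Bcl3 vehicle 3 was also the highest, at 1.65 times the median of the others, but the gap took up 0.434 of the range. Without it the vehicle mean of Bcl3 was 35.6 ± 8.97 CPM (SD, n = 3), and the log2 fold change was -0.85 ± 0.35 (SE).

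Vehicle 3 often lay at an end of its group. Of the 4218 tested genes it was the highest of the 4 vehicle libraries in 31.2% and the lowest in 31.9%, against 20.6% to 24.6% and 19.8% to 25.5% in the other vehicle libraries. By the gap over the range, taken as far when past Dixon's 95% critical value for 4 samples, 263 genes (6.24%) had a vehicle library far from the others. Vehicle 3 lay far above the other vehicle libraries in 71 genes (1.68%) and far below them in 42, while vehicle 1, vehicle 2 and vehicle 4 lay far above in 39, 24 and 34. What set vehicle 3 apart was not tested.

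The row opposite Bcl3 held more counts than Bcl3 and was ordered the other way. Gm16175 had 199, 238, 72 and 224 counts in vehicle and 301, 320 and 246 in VLX-1005. This is 165.8, 183.1, 65.6 and 175.2 CPM in vehicle and 205.0, 305.9 and 190.9 CPM in VLX-1005. Vehicle 3, the highest library of Bcl3, was by far the lowest here, and VLX-1005 replicate 2, the lowest of Bcl3, was the highest. The means were 147.4 ± 55.0 CPM (SD, n = 4) and 233.9 ± 62.7 CPM (SD, n = 3). The log2 fold change was 0.66 ± 0.32 (SE), with an edgeR adjusted p of 0.317, so the row was not called. Without vehicle 3 the vehicle mean was 174.7 ± 8.67 CPM (SD, n = 3) and the log2 fold change 0.42 ± 0.19 (SE).

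Per kb of exon, Gm16175 was the densest of these rows. Its mean was 595 CPM per kb in vehicle and 943 CPM per kb in VLX-1005, against 16.7 and 7.84 CPM per kb for Bcl3. As a share of the counts of the pair, Bcl3 held 13.9% in vehicle 1 (95% Wilson interval 9.99% to 18.9%), 16.2% in vehicle 2 (12.4% to 20.9%), 47.1% in vehicle 3 (38.9% to 55.4%) and 20.3% in vehicle 4 (16% to 25.4%). In VLX-1005 the share was 12% (8.96% to 15.9%), 3.9% (2.3% to 6.56%) and 8.55% (5.76% to 12.5%). These intervals cover counting error only. The share in vehicle 3 was above that of every other library, and its interval did not meet any of theirs. Each VLX-1005 share was below each vehicle share, but the interval of VLX-1005 replicate 1 met those of vehicle 1 and vehicle 2. Since Bcl3 was selected on this comparison, nothing is read from this order.

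When the 2 rows were added together, the direction turned. The sum was 192.5, 218.5, 124 and 219.8 CPM in vehicle and 232.9, 318.3 and 208.8 CPM in VLX-1005, and its log2 fold change was 0.42 ± 0.21 (SE), where Bcl3 alone gave -1.06. The groups overlapped in the sum, with VLX-1005 replicate 3 below vehicle replicates 2 and 4. Over the 7 libraries, log2 CPM of Bcl3 and Gm16175 had a Pearson r of -0.81 (Spearman rho -0.71). Over the 6 libraries without vehicle 3, r was -0.77 and rho -0.54. Both rows share libraries and exonic bases, so this is a description.

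**Figure D3:**
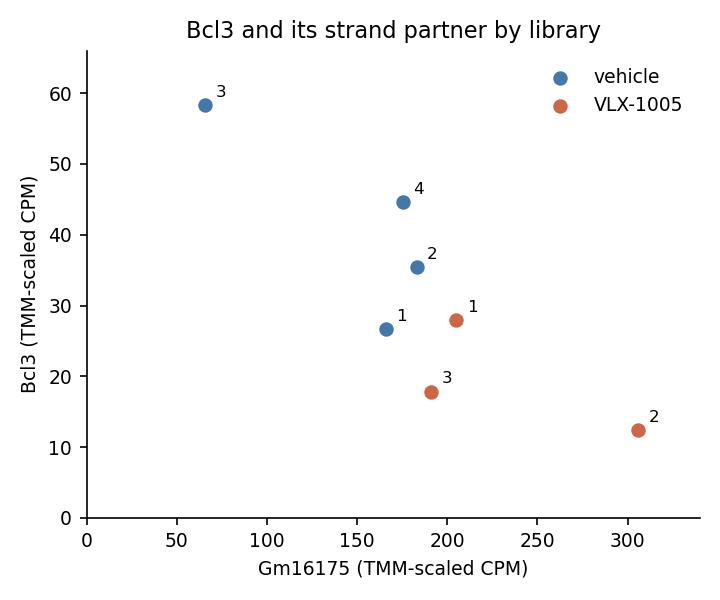
Level of Bcl3 against that of Gm16175 in each library, both in TMM-scaled CPM; points carry the replicate number. Vehicle 3 (58.4 CPM of Bcl3, 65.6 CPM of Gm16175) and VLX-1005 replicate 2 (12.4 and 305.9 CPM) lie at opposite corners.

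Zrsr1, the gene within Commd1, was close to the limit of detection and was not tested. It had 4, 3, 10 and 9 counts in vehicle and 5, 4 and 4 in VLX-1005. A count of 0 would still allow 3 counts, or 2.04 to 2.87 CPM, and the levels of 3.33, 2.31, 9.12 and 7.04 CPM in vehicle and 3.41, 3.82 and 3.11 CPM in VLX-1005 lay near this limit in most libraries. Commd1 thus held 96.7% to 98.8% of the counts of its pair in each library. Adding Zrsr1 to Commd1 left the log2 fold change at -0.48 ± 0.19 (SE), against -0.47 for Commd1 alone. The highest Zrsr1 value was again that of vehicle 3. Over the 7 libraries Commd1 and Zrsr1 had a Pearson r of 0.74 (rho 0.46), and without vehicle 3 the r was 0.34 (rho 0.14, n = 6).

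Commd1 was the denser of the member rows in both groups. Per kb of exon, its mean level was 38.6 CPM in vehicle and 27.8 CPM in VLX-1005, which is 2.31 times and 3.55 times that of Bcl3. Over the 7 libraries the log2 CPM of Bcl3 and Commd1 had a Pearson r of 0.80 (rho 0.75), and over the 6 without vehicle 3 an r of 0.66 (rho 0.60). Gm16175 and Commd1, which share no base, had an r of -0.83 (rho -0.89), and without vehicle 3 the r was -0.35 and rho -0.83. These values come from few libraries that also differ in treatment and depth. Both members were selected on the difference between the groups, so nothing is read from the r between them.

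The neighbouring genes had few counts. Of 9 other genes within 50 kb of Bcl3, 3 had at least 10 counts in all libraries together, Gm16174 (13), Gm19345 (12) and Ceacam16 (100). Only Ceacam16, a tectorial membrane protein of the inner ear, was tested, with a log2 fold change of -0.02 ± 0.38 (SE, edgeR adjusted p = 0.987). Around Commd1, 2 of 7 genes had at least 10 counts. B3gnt2, a glycosyltransferase that builds poly-N-acetyllactosamine chains, held 290 counts and gave -0.46 ± 0.27 (SE, edgeR adjusted p = 0.390). Cct4, a subunit of the cytosolic chaperonin that every cell uses, held 16 counts. Neither of the tested neighbours was called.

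The rows of the core of the pathway around the members had very few counts. Of 94 other NF-κB and COMMD genes in 11 lists, 18 were tested and 14 had no count in any library, and together they held 0.196% of all counts. Nfkb1, which encodes the p50 subunit that Bcl3 binds, had 4 counts in the 7 libraries, Rela, the subunit that Commd1 acts on, had 12, and Relb had 1. Nfkbia, which encodes the main inhibitor IκBα and is itself a target of NF-κB, had 15. The 21 genes with an exon overlap on the other strand were 22.3% of the 94 and held 90.8% of their counts. The other 73 had a median of 3 counts, and rows of the whole table without such an overlap a median of 0. Nfkb1, Rela, Relb and Nfkbia are among the 73, so their few counts are not read as low expression of these genes. Of the 18 tested genes, 10 were such genes and 8 had no such overlap.

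Of these 18 genes, 10 had a higher and 8 a lower level with VLX-1005, and none was called by edgeR, where the background was 2.37%. None had an unadjusted p under 0.05, where 759 of all 4218 genes (18%) had one, and DESeq2 called none either. At a background of 2.37%, no call among 18 genes is close to the share over all tested genes. The lists were chosen with earlier results of these data known, so nothing is read from these counts. The median log2 fold change of the 18 was 0.05, beside -0.01 over all tested genes. The lowest adjusted p was that of Ripk1, the kinase that links tumor necrosis factor receptors to IKK. Ripk1 was at 5.97 ± 3.23 CPM (SD, n = 4) in vehicle and 12.3 ± 3.60 CPM (SD, n = 3) in VLX-1005. This is a log2 fold change of 1.02 ± 0.49 (SE), with an edgeR adjusted p of 0.301. The Ripk1 row held 78 counts, and its exons share 241 bases with Serpinb6a on the other strand, a row of 2151 counts.

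Among the subunits and inhibitors, Nfkb2, which encodes p52, had a log2 fold change of -0.20 ± 0.23 (SE). The other nuclear IκB protein tested, Nfkbiz, gave 0.52 ± 0.47 (SE), with 1 vehicle library at 54 CPM and the others between 12.8 and 18.5 CPM. Nfkbil1, a distant relative of the IκB proteins, gave 0.34 ± 0.57 (SE). Each of these 3 differences was smaller than 2 of its standard errors.

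In the kinase complex, Ikbkg (NEMO), its regulatory subunit, was the row with many counts, at 383.4 ± 45.8 CPM (SD, n = 4) in vehicle and 323.4 ± 29.6 CPM (SD, n = 3) in VLX-1005. Its log2 fold change was -0.25 ± 0.13 (SE, edgeR adjusted p = 0.355). The related kinase Ikbke gave -0.46 ± 0.48 (SE), and the catalytic subunits Chuk and Ikbkb had 1 and 5 counts. Irak4, a kinase of the interleukin-1 receptor pathway, held the most counts of the lists, at 1047 ± 55.4 CPM in vehicle (SD, n = 4) and 942.8 ± 84.4 CPM in VLX-1005 (SD, n = 3), and gave -0.15 ± 0.11 (SE). The adaptor Myd88 gave 0.39 ± 0.26 (SE), the receptor Il1r1 -0.49 ± 0.29 (SE) and the ligand Il1a -0.41 ± 0.40 (SE). Of the tested genes named here, Ikbkg, Ikbke, Irak4, Myd88 and Il1a overlap a gene on the other strand, and Il1r1 does not.

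Of the known partners of Bcl3, the acetyltransferase Ep300 gave 0.58 ± 0.32 (SE, edgeR adjusted p = 0.355), the kinase Gsk3b 0.03 ± 0.38 (SE) and the cyclin Ccnd1 -0.09 ± 0.19 (SE). The acetyltransferase Kat5 had 49 counts and was not tested. Of the COMMD family and its complex, the retriever subunits Vps26c and Vps35l were tested and gave 0.61 ± 0.37 (SE) and -0.08 ± 0.16 (SE). The other COMMD genes had up to 34 counts each, that of Commd3, and the ligase and copper transport partners of Commd1 (Cul2, Elob, Eloc, Atp7a and Atp7b) up to 13.

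The rows opposite pathway genes mostly held more counts than the pathway genes, as Gm16175 did beside Bcl3, while Zrsr1 held fewer than Commd1. There were 24 such rows opposite 20 of the 21 overlapped genes (for Icam1, the overlapping gene was not analysed here). For 17 of the 20 the opposite row, or the largest of several, had the higher total. The same share over all overlapped genes of the table was not computed. Of 21 tested rows, 14 had a higher and 7 a lower level with VLX-1005, with a median log2 fold change of 0.18, and 1 was called by edgeR, beside 2071 higher, 2147 lower, a median of -0.01 and 2.37% called over all tested genes. It was Atp6v1g2, a subunit of the vacuolar proton pump opposite Nfkbil1. Its level was 43.4 CPM in vehicle and 84.1 CPM in VLX-1005, and it rose by 0.96 ± 0.22 on the log2 scale (SE, edgeR adjusted p = 0.0407). The call was lost in 9 of 15 alternatives, among them leaving out any 1 library except VLX-1005 replicate 3 (edgeR adjusted p = 0.0883 to 0.126), while the log2 fold change stayed between 0.78 and 1.095 over all 15.

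Foxp3, the transcription factor of regulatory T cells, lies opposite Ccdc22, the partner of Commd1. It was at 292.7 ± 33.6 CPM (SD, n = 4) in vehicle and 227.5 ± 29.9 CPM (SD, n = 3) in VLX-1005. The study names Foxp3 from this same comparison too, so its difference is described without a test. All VLX-1005 libraries were below all vehicle libraries, as in 8.16% of tested genes, and the log2 fold change was -0.36 ± 0.14 (SE). Vehicle 3 was the highest library, at 343 CPM against 271 to 281 CPM in the other vehicle libraries. Ccdc22 itself had 4, 4, 0 and 0 counts in vehicle and 13, 8 and 4 in VLX-1005. The T cell markers beside it summed to 0 to 2.5 CPM in vehicle and 0.681 to 0.956 CPM in VLX-1005, with Cd3g at 0. G6pdx, the first enzyme of the pentose phosphate pathway and the row opposite Ikbkg, was also lower in all VLX-1005 libraries, with a log2 fold change of -0.49 ± 0.21 (SE, edgeR adjusted p = 0.246). So was Rnaseh2c, opposite Kat5, while Cspp1, opposite Cops5, and Atp6v1g2 were higher in all of them. Art3, opposite Cxcl10, gave 1.06 ± 0.44 (SE) and Acaa1a, opposite Myd88, 0.44 ± 0.19 (SE). Of the 21 tested rows opposite pathway genes, 5 had an unadjusted edgeR p under 0.05, Foxp3 among them, beside 18% of all tested genes.

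**Figure D4:**
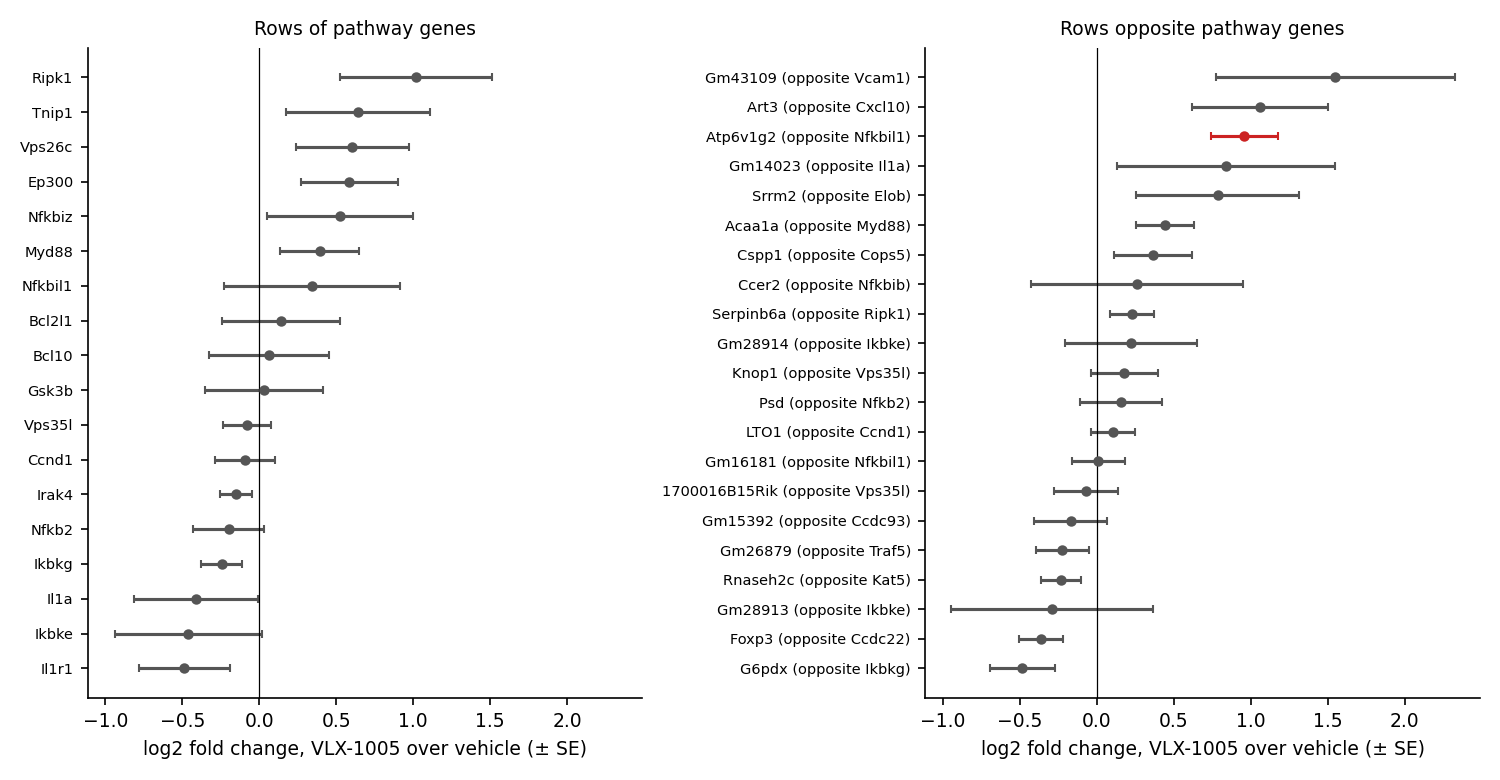
Log2 fold change of VLX-1005 over vehicle with its SE for the 18 tested pathway genes (left) and the 21 tested rows opposite pathway genes (right); red marks a call by edgeR at an adjusted p under 0.05. The left values run from -0.49 (Il1r1) to 1.02 (Ripk1) with no call, and Atp6v1g2 is the 1 call on the right.

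The rows whose pattern over the 7 libraries was most like that of Bcl3 were Mafk (Pearson r = 0.99 on log2 CPM), a small Maf transcription factor, the antisense row Gm42413 (0.98), Apbb1 (0.98), an adaptor that binds the amyloid precursor protein, the antisense row Gm12352 (0.98) and the noncoding row D030028A08Rik (0.97). In all, 103 of the other 4217 tested genes had an r above 0.9. Mafk was at 100.7 ± 15.4 CPM (SD, n = 4) in vehicle and 67.9 ± 11.8 CPM (SD, n = 3) in VLX-1005, a log2 fold change of -0.56 ± 0.20 (SE, edgeR adjusted p = 0.174). In each of these 5 rows vehicle 3 was the highest and VLX-1005 replicate 2 the lowest library, as in Bcl3, while the range was narrower. Except for Apbb1, each overlaps a gene on the other strand.

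Most like Commd1 were the antisense row Gm29477 (r = 0.98), Tmem234 (0.97), a membrane protein, Npas1 (0.97), a transcription factor of the nervous system, Gm26524 (0.97) and the zinc finger gene Zfp646 (0.97), and 46 genes had an r above 0.9. Zfp646 was at 718.0 ± 146.1 CPM (SD, n = 4) in vehicle and 496.0 ± 118.2 CPM (SD, n = 3) in VLX-1005. Its log2 fold change was -0.53 ± 0.19 (SE, edgeR adjusted p = 0.174). Vehicle 3 was again the highest of the vehicle libraries in all 5, and VLX-1005 replicate 3 the lowest library. None of the 10 rows was called. They were ranked on the same libraries that carry the difference between the groups, so their own differences follow from the choice.

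**Figure D5:**
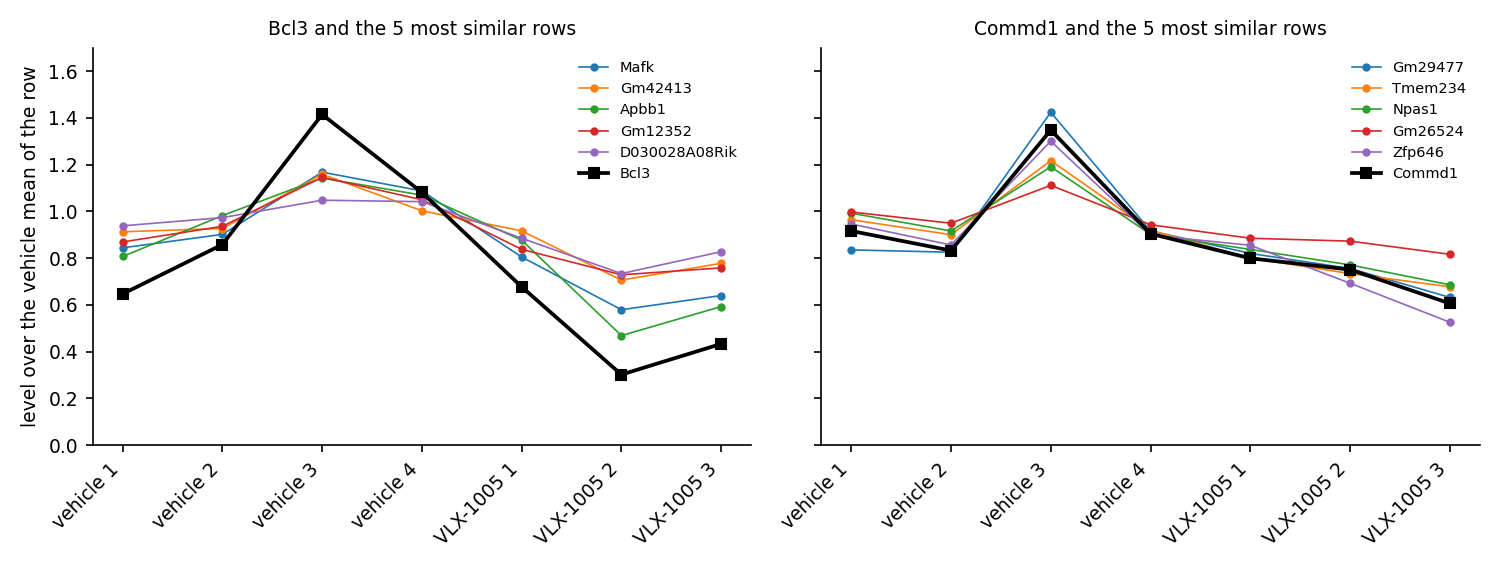
Level of Bcl3 (left) and Commd1 (right) in black with the 5 rows of highest Pearson r in color, each divided by the vehicle mean of its row, by library. Vehicle 3 is the peak in each row, and Bcl3 has a wider range than the rows most like it.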

How the data were processed

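The deposited file holds counts of reads per Ensembl gene that the authors made without normalization, 1 column for each of 7 libraries. The submitters' notes name Trimmomatic, FastQC, HTSeq, DESeq2 and the build mm10, and the study's methods add HISAT2 in Galaxy. For tool versions, annotation release and strand setting the sources used here give nothing. Annotation came from GENCODE M21 (48058 IDs with a position, 382 without), and bedtools 2.31.1 listed exon overlaps on opposite strands.

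Groups followed the sample titles. All 7 libraries entered a quasi-likelihood fit in edgeR 4.0.16 (R 4.3.3) with the default filter on low counts, TMM factors, robust dispersion and no covariate, and two-sided p-values were adjusted (Benjamini-Hochberg) over 4218 genes at 0.05. Levels are TMM-scaled CPM, and log2 CPM for correlations used a prior count of 2. A zero count allows up to 3 counts, and this limit and the 95% Wilson intervals cover counting error only, as the reads carried no molecular identifiers. Total counts of 1024586 to 1430785 per library set the precision.

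The rule named Bcl3, Commd1, their opposite rows, neighbours within 50 kb with at least 10 counts, pathway list genes that passed the filter or led in counts among the rest, tested rows opposite list genes, and for each member the 5 rows of highest Pearson r. Members and lists were chosen with earlier results of these data known. Columns outside the 7 libraries were not present, and the fit was tested on simulated data.

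Alternatives were DESeq2 1.42.0, other scalings, other filters on low counts, a replicate block, the ribosomal RNA share as a covariate, summing opposite rows and leaving out each library. Promoter sequences were from RefSeq, and no protein sequences were used here.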

Additional observations from a re-analysis of the deposited data

Results flagged for a closer look

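In 42 rows (Bcl3, the rows opposite the members, tested pathway genes and tested rows opposite them), the highest or lowest of the 4 vehicle libraries was compared with the nearest of the others, and 5 had a gap that took up more of the group's range than Dixon's 95% critical value. Chance alone gives about 1 in 20 groups, and 6.24% of all 4218 tested genes had such a gap, 113 of the 263 in vehicle 3. Commd1, selected for its vehicle 3 value, was left out. In vehicle 3, Gm16175 was low at 65.6 CPM against 166 to 183 CPM (gap 0.853), and Foxp3, opposite Ccdc22, was high at 343 CPM against 271 to 281 CPM (0.859). With upper quartile factors, a choice added after seeing the data, the gap of Gm16175 was 0.8 and no longer past the limit. Nfkb2 was high in vehicle 1, at 71.7 CPM against 48.5 to 50.8 CPM (0.897). In vehicle 4, Nfkbiz was at 54 CPM against 12.8 to 18.5 CPM (0.862) and Vps35l at 253 CPM against 184 to 193 CPM (0.865).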

How the results depend on the processing

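The log2 fold change of Commd1 was negative in 16 of 16 alternatives, from -0.75 with the ribosomal RNA share as a covariate to -0.30 without vehicle 3, and leaving out 1 library at a time gave -0.56 to -0.30. That of Bcl3 was negative in 15 of 16 (leaving out 1 library, -1.43 to -0.83) and positive, at 0.42, when the counts of Gm16175 were added to it. Neither member was called in any of the 16. The number of genes called by edgeR, 100, was 197 with DESeq2, 263 without any filter, 164 when 1 CPM in 3 libraries was asked for, and 0 with the ribosomal RNA share as a covariate. It ranged from 14 (without vehicle 1) to 203 (without VLX-1005 replicate 3) when 1 library was left out, with 23, 16, 18 and 29 without vehicle 2, vehicle 3, vehicle 4 and VLX-1005 replicate 2. In the pathway lists 0 genes were called under all 15 alternatives, and the median log2 fold change was -0.06 to 0.13 without 1 library and 0.36 without any filter, where more low rows entered. Commd1 in vehicle 3 was 1.48 to 1.55 times the median of the other vehicle libraries when 1 of those was left out. The cause of these shifts was not tested.

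With the replicate number as a block, 19 genes were called, Bcl3 was at -1.02 and Commd1 at -0.50. The numbers did not pair the samples, since the deviations of same-numbered libraries correlated at -0.03, -0.02 and 0.09, and of the VLX-1005 libraries only replicate 3 correlated best with its own number. Zrsr1 and most pathway genes lay too close to 3 counts per library for a difference to be detectable at this depth. Atp6v1g2 lost its call with upper quartile factors (edgeR adjusted p = 0.056), the ribosomal covariate (0.764) and the block (0.189). Its alternatives and the relation of Bcl3 and Gm16175 without vehicle 3 were chosen after seeing the data.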
